A study of Mus musculus with 12 samples.

Results

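Expression of 6 genes of biotin metabolism was followed across the 4 groups of the study: Hlcs, Btd, Pcca, Pccb, Mccc1 and Mccc2, taken by gene name from the 56748 genes of the deposited count table. The set was chosen by measured values, with earlier results of these data known: the CPM of Hlcs was lower in both ABHD6-manipulated groups. The levels and fold changes of the 6 genes in those treatment comparisons are therefore given as a description, with no test, and only the comparison between the control groups is tested for them.

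Biotin is a vitamin that works only once it is bound to a lysine of a carboxylase. Hlcs encodes holocarboxylase synthetase, the ligase that makes this bond, and Btd encodes biotinidase, which frees biotin from degraded carboxylases for reuse. Propionyl-CoA carboxylase (subunits Pcca and Pccb) handles propionyl-CoA from isoleucine, valine, methionine, threonine and odd-chain fatty acids, and methylcrotonyl-CoA carboxylase (Mccc1 and Mccc2) acts in leucine breakdown. Both are mitochondrial enzymes, abundant in liver. In each, the alpha subunit (Pcca, Mccc1) carries the biotin and the beta subunit (Pccb, Mccc2) transfers the carboxyl group. Pyruvate carboxylase (Pcx) and the acetyl-CoA carboxylases (Acaca, Acacb) are the other biotin carriers that Hlcs serves.

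The 12 poly-A RNA libraries were from mouse, 3 in each group. The liver groups were C57BL/6 mice on a diet with 60% of calories from fat for 8 weeks: GFP controls with the genotype label WT, and livers labelled LABHD6 OE, in which the series text gives a tail-vein injected AAV8 vector with ABHD6 behind the hepatocyte-directed TBG promoter. The other groups were primary hepatocytes, with an ABHD6 siRNA (siABHD6, labelled ABHD6 knockdown) or a scrambled siRNA (siScramble, labelled WT), all under the treatment label "no treatment". The labels used here give no age or sex, no diet for the source of the hepatocytes and no dose of virus or siRNA. They do not tell whether GFP livers received the same AAV8 vector, or whether each hepatocyte library came from its own culture. For the cultures a p-value may thus reflect technical spread alone. Livers with an ABHD6 knockout are named in the series text and were not analysed here.

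Library totals were 12295733 to 16234658 counts, and the 6 genes had 238 to 3579 counts per library. Abhd6 itself moved with the labels, at 136 to 241 CPM in overexpressing livers against 32.2 to 57.2 CPM in GFP livers and at 3.78 to 4.07 CPM in siABHD6 against 25.7 to 27.9 CPM in siScramble hepatocytes. CPM scales counts to library size, here on 1 TMM scale over all 12 libraries, while marker sums use the library total and fold changes come from the 6 libraries of each comparison. Hepatocyte markers (9 genes, among them Alb and Ttr) summed to 71700 to 119000 CPM in livers and to 16700 to 17700 in cultures. Kupffer cell markers (8 genes) summed to 171 to 393 in livers and 1.53 to 2.67 in cultures, and Timd4 was at 0 in every culture. Cholangiocyte markers (5 genes) summed to 44.6 to 72.3 in livers and 676 to 890 in cultures, though Krt7 of this list was at 0 in every siABHD6 culture. GFP liver 3 and overexpressing liver 1 stood apart from the other livers of their groups (chi-square per gene of 111 to 240, against 17.5 and 33.2 between the remaining pairs), with Alb at 4.88% and 3.83% of counts where the other livers had 7.54% to 8.68%.

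The sites that Hlcs modifies are visible in the genes themselves. A reading frame search for the codons methionine-lysine-methionine, the core of the biotin attachment motif, found 1 such site in each of the 5 biotin-carrying genes and 0 in the coding sequences of Pccb and Mccc2. The stretches are shown because they are the shared substrate of the ligase, with the capitals marking the methionine, lysine and methionine codons. They come from GENCODE M21 transcripts.
Pcca: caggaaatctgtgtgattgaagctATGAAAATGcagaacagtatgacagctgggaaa
Mccc1: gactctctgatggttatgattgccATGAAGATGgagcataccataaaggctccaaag
Pcx: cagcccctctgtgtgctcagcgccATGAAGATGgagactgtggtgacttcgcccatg
Acaca: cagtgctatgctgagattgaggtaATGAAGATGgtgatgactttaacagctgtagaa
Acacb: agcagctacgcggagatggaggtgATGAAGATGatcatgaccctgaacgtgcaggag

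In build GRCm38 the capitals of Pcca lie at chr14:122887083-122887091 on the plus strand, in exon 23 of 24, with the lysine at codon 690 of 724. Those of Mccc1 lie at chr3:35960936-35960944 on the minus strand, in exon 18 of 19, with the lysine at codon 677 of 717. In Pcx the site is at chr19:4621178-4621186 on the plus strand, in the last of 21 exons, at codon 1145 of 1179. In these 3 mitochondrial carboxylases the lysine thus sits close to the end of the protein. In Acaca (chr11:84260627-84260635, plus strand, exon 18 of 54) and Acacb (chr5:114207239-114207247, plus strand, exon 18 of 52) it sits in the first part, at codons 785 of 2345 and 919 of 2448. The Pcca site uses another lysine codon than the other 4 genes.

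The ligase gene Hlcs (ENSMUSG00000040820; mm39 chromosome 16, 93929741 to 94114430, minus strand) was lower in each manipulated group than in its control. The control groups, siScramble hepatocytes and GFP livers, overlapped. In hepatocytes it was at 31.4, 30.5 and 32.0 CPM with siScramble and at 22.4, 22.9 and 21.3 CPM with siABHD6. Every knockdown culture lay below every control culture. In livers it was at 31.3, 37.6 and 45.7 CPM in GFP livers 1, 2 and 3 and at 20.8, 24.4 and 24.7 CPM in overexpressing livers 1, 2 and 3. These groups did not overlap either, and GFP liver 3 was the highest library of all 12. The log2 fold change was -0.51 (SE 0.06) in hepatocytes, 0.702 times the control, and -0.71 (SE 0.16) in livers, 0.612 times the control. These values chose the gene, and they come from opposite manipulations of Abhd6 that share no samples. The liver value was -0.56 (SE 0.15) without GFP liver 3 and -0.48 (SE 0.15) without GFP liver 3 and overexpressing liver 1. In bulk liver, fewer cells of a type and less RNA per cell cannot be told apart.

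**Figure D1:**
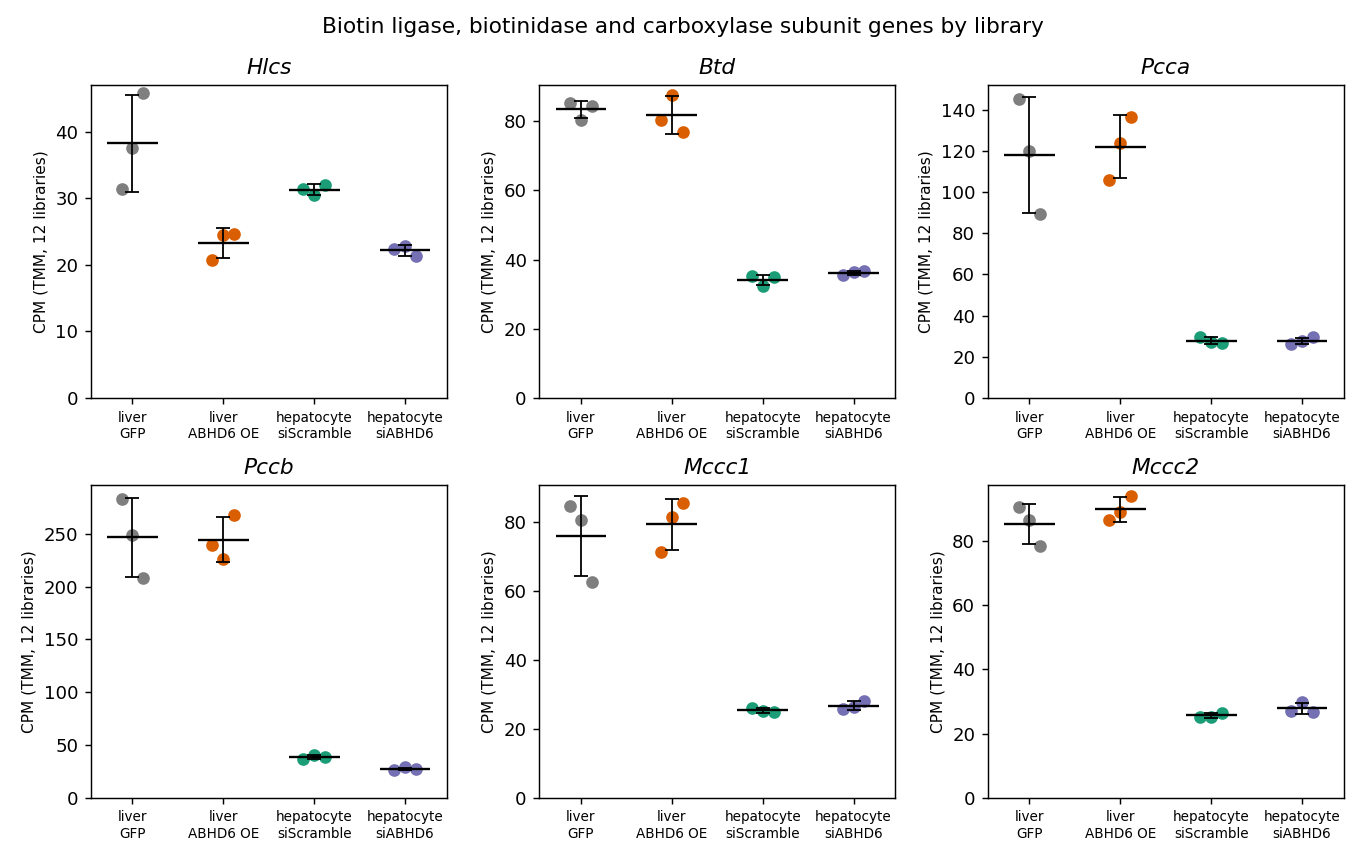
CPM (TMM scale over 12 libraries, axes from 0) of the 6 genes in each library, with points for libraries, a line for the mean and bars for 1 SD (n = 3). Hlcs was lower in both manipulated groups, Pccb was lower with siABHD6 and overlapped between the liver groups, and all genes but Hlcs had every liver above every culture.

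The recycling gene Btd (ENSMUSG00000021900; mm39 chromosome 14, 31362985 to 31390536, plus strand) varied little within either system. It was at 85.3, 80.5 and 84.5 CPM in GFP livers and at 80.4, 87.7 and 77.0 CPM in overexpressing livers. The liver groups overlapped, with a log2 fold change of -0.03 (SE 0.10). In hepatocytes Btd was at 35.1, 32.3 and 34.9 CPM with siScramble and at 35.6, 36.5 and 36.7 CPM with siABHD6. The knockdown cultures were all slightly above the controls, with a log2 fold change of 0.07 (SE 0.06). Btd overlaps Hacl1 on the opposite strand, which had 12 to 395 counts, and whether counting used the strand is not stated in the labels or headers.

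The subunits of propionyl-CoA carboxylase parted ways in the cultures. Pccb, the beta subunit gene (ENSMUSG00000032527; mm39 chromosome 9, 100864085 to 100916951, minus strand), was at 37.2, 40.9 and 38.3 CPM with siScramble and at 26.2, 28.8 and 27.0 CPM with siABHD6. All 3 knockdown cultures lay below all 3 controls, with a log2 fold change of -0.52 (SE 0.06), as large as that of Hlcs. Pcca, the biotin-carrying alpha subunit gene (ENSMUSG00000041650; mm39 chromosome 14, 122771736 to 123128512, plus strand), was at 29.9, 27.0 and 26.9 CPM with siScramble and at 26.4, 27.5 and 29.5 CPM with siABHD6. These groups overlapped, and the log2 fold change was -0.02 (SE 0.07).

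In livers neither subunit gene separated the groups. Pccb was at 283, 249 and 209 CPM in GFP livers and at 239, 226 and 268 CPM in overexpressing livers, with a log2 fold change of -0.01 (SE 0.16). Pcca was at 145, 120 and 89.1 CPM in GFP livers and at 106, 124 and 137 CPM in overexpressing livers, with a log2 fold change of 0.05 (SE 0.20). GFP liver 3, which had the most Hlcs, had the least Pcca and Pccb of the 6 livers. Pcca overlaps Ggact on the opposite strand, which had 109 to 661 counts.

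The subunit genes of methylcrotonyl-CoA carboxylase stayed close to their controls in both systems. Mccc1, the biotin-carrying subunit gene (ENSMUSG00000027709; mm39 chromosome 3, 36013461 to 36054827, minus strand), was at 26.1, 25.0 and 24.9 CPM with siScramble and at 25.6, 26.4 and 28.1 CPM with siABHD6, with a log2 fold change of 0.06 (SE 0.07). Mccc2, the beta subunit gene (ENSMUSG00000021646; mm39 chromosome 13, 100085038 to 100152147, minus strand), was at 25.2, 25.3 and 26.5 CPM with siScramble and at 27.1, 29.9 and 26.7 CPM with siABHD6, with a log2 fold change of 0.11 (SE 0.07). The hepatocyte groups overlapped for Mccc1 and did not for Mccc2.

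In livers Mccc1 was at 84.5, 80.6 and 62.6 CPM with GFP and at 71.2, 81.3 and 85.5 CPM with overexpression, a log2 fold change of 0.07 (SE 0.15). Mccc2 was at 90.7, 86.5 and 78.6 CPM with GFP and at 86.5, 89.2 and 94.1 CPM with overexpression, a log2 fold change of 0.08 (SE 0.11). Both overlapped between the groups, and GFP liver 3 was again the lowest liver for each.

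For orientation only, in hepatocytes edgeR called 15.4% of the 13449 genes tested at an adjusted p under 0.05, 7.61% lower and 7.81% higher. No call is given for the 6, since these comparisons served to choose the set. Groups did not overlap for 4 of the 6, where 31.2% of all genes did not. The median log2 fold change was 0.02 over the 6 and -0.0024 over all genes tested. In livers edgeR called 0% of the 13910 genes tested. Abhd6 itself was thus not called there, at a log2 fold change of 2.04 (SE 0.28, edgeR unadjusted p = 0.00015) with groups that did not overlap. A gene that did not pass in livers is therefore not shown to be unchanged. Hlcs was the 1 gene of the 6 whose liver groups did not overlap, where 6.75% of all genes did not (3.53% lower, 3.22% higher). The counts come from the comparisons that chose the set and, for Hlcs, restate the choice, so nothing is read from them.

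**Figure D2:**
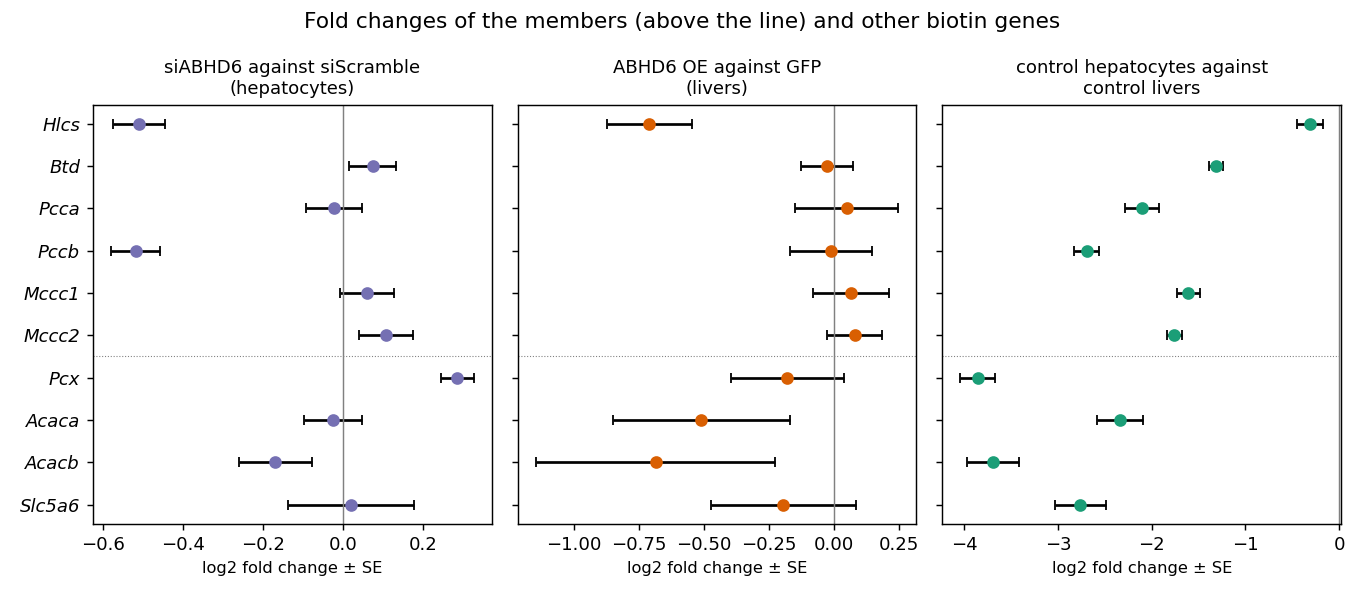
Log2 fold change with its SE (bars) of the 6 genes and, under the dotted line, of 4 other biotin genes, in each comparison. The axes differ between panels: in hepatocytes Hlcs and Pccb lay at -0.51 and -0.52, in livers Hlcs lay at -0.71, and between control hepatocytes and control livers Pcx lay at -3.86 and Hlcs at -0.31.

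The comparison of siScramble hepatocytes with GFP livers was not used in choosing the genes and asks how their levels differ between culture and tissue without the ABHD6 manipulation. All genes of the set except Hlcs passed as lower in culture. The largest log2 fold change of the 6 was that of Pccb, at -2.69 (SE 0.13, edgeR adjusted p = 4.82e-06), and its partner Pcca was at -2.11 (SE 0.18, edgeR adjusted p = 5.49e-05). Mccc2 was at -1.76 (SE 0.08, edgeR adjusted p = 3.85e-06) and Mccc1 at -1.61 (SE 0.13, edgeR adjusted p = 3.52e-05). Btd was at -1.32 (SE 0.07, edgeR adjusted p = 8.46e-06). Each of these 5 was lower in every culture than in every liver. Hlcs differed by -0.31 (SE 0.14), its groups overlapped and it did not pass (edgeR adjusted p = 0.0811).

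These counts stand against a background in which 70.3% of the 14215 genes tested were called, 36.9% lower in culture and 33.3% higher, and groups did not overlap for 76.4%. Culture, diet, animals, siRNA and any virus given to the GFP livers differ together between these groups and cannot be told apart. The part of the shifts in marker sums given above was not tested. The Hlcs difference passed without GFP liver 1 (-0.42, edgeR adjusted p = 0.0126), and it was -0.15 (edgeR adjusted p = 0.174) without GFP liver 3. Over the settings that leave out 1 library its adjusted p ran from 0.0126 to 0.224.

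On the scale of all 12 libraries the order of Hlcs levels was GFP livers at 38.2 ± 7.22 CPM (SD, n = 3), siScramble hepatocytes at 31.3 ± 0.755 CPM, overexpressing livers at 23.3 ± 2.21 CPM and siABHD6 hepatocytes at 22.2 ± 0.820 CPM. The ranges of the first and second of these overlapped, as did those of the third and the fourth. For Pccb the order was 247 ± 37.0, 244 ± 21.2, 38.8 ± 1.89 and 27.3 ± 1.3 CPM (SD, n = 3 each) in GFP livers, overexpressing livers, siScramble and siABHD6 hepatocytes, and the liver groups overlapped.

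Levels can be compared between genes only per length. In GFP livers the mean level per kilobase was 89.0 ± 13.4 CPM for Pccb, 35.5 ± 1.09 CPM for Btd, 30.4 ± 2.19 CPM for Mccc2, 22.7 ± 5.37 CPM for Pcca, 6.93 ± 1.07 CPM for Mccc1 and 4.28 ± 0.809 CPM for Hlcs (SD, n = 3 each). Hlcs was the lowest of the 6 in GFP livers. In siScramble hepatocytes Btd at 14.5 ± 0.658 and Pccb at 14.0 ± 0.682 CPM per kilobase were highest and overlapped, and Mccc1 at 2.31 ± 0.0590 was lowest, under Hlcs at 3.51 ± 0.0846. The length is that of the deposited table, which for Mccc1 is 10952 bases against a coding length of 2151 bases in GENCODE M21, so a level per length of Mccc1 depends strongly on the gene model.

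Ratios within a library do not depend on the scaling between libraries. The log2 ratio of Pcca to Pccb per kilobase was -1.87, -1.96 and -2.14 in GFP livers and -2.09, -1.78 and -1.88 in overexpressing livers. It was -1.23, -1.51 and -1.42 in siScramble and -0.90, -0.97 and -0.78 in siABHD6 hepatocytes. The alpha subunit transcript was thus 0.252 times the beta subunit transcript in GFP livers, 0.383 times in siScramble and 0.541 times in siABHD6 hepatocytes (geometric means). These sizes depend on the deposited gene lengths (5210 bases for Pcca, 2771 for Pccb), while the differences between groups do not. The hepatocyte groups did not overlap with each other or with the livers. Between the control groups the log2 ratio was higher in culture by 0.61 (exact two-sided permutation p = 0.1, the smallest that 3 against 3 can give).

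For Mccc1 over Mccc2 the log2 ratio was nearly level across the study, at -2.14 ± 0.131 in GFP livers, -2.15 ± 0.0840 in overexpressing livers, -1.99 ± 0.0669 in siScramble and -2.03 ± 0.130 in siABHD6 hepatocytes (SD, n = 3 each). The control groups differed by 0.16 (exact two-sided permutation p = 0.1, again the smallest possible).

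Hlcs was also set against the summed level per kilobase of the 5 biotin-carrying genes, in a ratio that depends on the deposited gene lengths. Pcx was the largest term of the sum in each group. Its mean was 234 CPM per kilobase in GFP and 206 in overexpressing livers, and 16.4 in siScramble and 20.2 in siABHD6 hepatocytes. The ratio of Hlcs to the sum thus weighs Pcx most. This ratio was 0.113 in siScramble and 0.0718 in siABHD6 hepatocytes, and 0.0133 in GFP and 0.00953 in overexpressing livers (geometric means, n = 3 each). In log2 units it was -3.12, -3.22 and -3.11 with siScramble and -3.72, -3.79 and -3.89 with siABHD6, with no overlap. In livers it was -6.79, -6.28 and -5.64 with GFP and -6.66, -6.62 and -6.86 with overexpression, and these overlapped, since GFP liver 1 lay within the overexpressing livers.

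**Figure D3:**
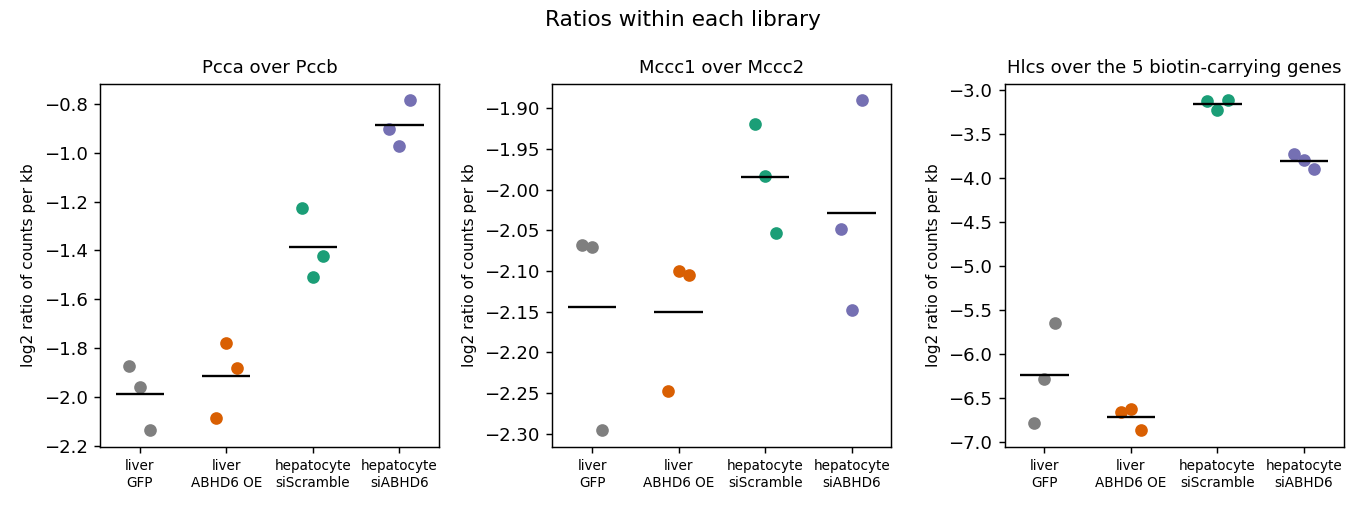
Log2 ratio of counts per kilobase within each library for Pcca over Pccb, Mccc1 over Mccc2 and Hlcs over the sum of Pcca, Mccc1, Pcx, Acaca and Acacb, with points for libraries and a line for the mean of 3. Pcca over Pccb stepped from -1.99 in GFP livers to -1.39 in siScramble and -0.89 in siABHD6 hepatocytes, while Mccc1 over Mccc2 stayed between -2.15 and -1.99 on average.

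The other biotin carriers and the biotin transporter gene Slc5a6 were examined as a list of 4 genes. The list was chosen for function, with earlier results of these data known. In hepatocytes 1 of the 4 passed, where 15.4% of all genes did (7.81% higher): Pcx, of gluconeogenesis and anaplerosis, rose from 78.1 ± 2.08 to 96.1 ± 0.632 CPM (SD, n = 3 each), a log2 fold change of 0.28 (SE 0.04, edgeR adjusted p = 5.55e-05). Acaca, of fatty acid synthesis (-0.03, SE 0.07), Acacb, which makes the malonyl-CoA that restrains mitochondrial fatty acid uptake (-0.17, SE 0.09), and Slc5a6 (0.02, SE 0.16) did not pass. In livers 0 of the 4 passed, with log2 fold changes of -0.51 (SE 0.34) for Acaca, -0.68 (SE 0.46) for Acacb, -0.18 (SE 0.22) for Pcx and -0.19 (SE 0.28) for Slc5a6, and the groups overlapped for each.

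In control hepatocytes against control livers all 4 were lower, where 36.9% of all genes were, with log2 fold changes of -3.86 (SE 0.18) for Pcx, -3.69 (SE 0.27) for Acacb, -2.76 (SE 0.27) for Slc5a6 and -2.33 (SE 0.25) for Acaca and edgeR adjusted p-values up to 0.00015. Slc5a6 overlaps Atraid on the opposite strand, which had 363 to 937 counts. Pcx stood at 1111 ± 234 CPM in GFP livers against 78.1 ± 2.08 CPM in siScramble hepatocytes (SD, n = 3 each).

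The breakdown of branched-chain amino acids, in which Mccc1 and Mccc2 act directly and which feeds propionyl-CoA carboxylase, was followed in 23 genes. In hepatocytes 3 rose and 2 fell, where 7.81% and 7.61% of all genes did, with a median log2 fold change of -0.02 against -0.0024 over all genes. Slc25a44, a mitochondrial carrier of these amino acids, rose by 0.27 (SE 0.06, edgeR adjusted p = 0.00177). The thiolase gene Acat1 rose by 0.23 (SE 0.05, edgeR adjusted p = 0.0049), and the transaminase gene Bcat2 rose by 0.82 (SE 0.27, edgeR adjusted p = 0.0452). Aldh6a1, which encodes methylmalonate semialdehyde dehydrogenase of the valine route, fell by 0.38 (SE 0.08, edgeR adjusted p = 0.00154). Dbt, of the branched-chain ketoacid dehydrogenase complex, fell by 0.19 (SE 0.06, edgeR adjusted p = 0.037).

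The calls of Bcat2 and Dbt were each lost when any of 4 cultures was left out. Bcat2 was at only 1.40 ± 0.421 and 2.48 ± 0.323 CPM (SD, n = 3 each) in siScramble and siABHD6 hepatocytes, and it lost its call without siScramble 1 or 2 or siABHD6 1 or 2 (edgeR adjusted p of 0.0942, 0.211, 0.109 and 0.127). It overlaps the noncoding gene 0610005C13Rik on the opposite strand, which had 23 to 2587 counts. Dbt lost its call without siScramble 1 or 2 or siABHD6 2 or 3 (edgeR adjusted p of 0.150, 0.0935, 0.179 and 0.0684).

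In livers 0 of the 23 passed. Of these, 18 had positive and 5 negative log2 fold changes, with a median of 0.14 against -0.0057 over all genes. Groups did not overlap for 3 of the 23, where 6.75% of all genes did not. Dbt had the smallest p of the list, with a log2 fold change of 0.35 (SE 0.12, edgeR unadjusted p = 0.0194, adjusted p = 1), with the opposite sign in hepatocytes and the difference between the systems not tested. Slc25a44 had the next smallest p, with a log2 fold change of -0.20 (SE 0.10, edgeR unadjusted p = 0.0789, adjusted p = 1), against the sign of most of the list, and its groups did not overlap.

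In control hepatocytes against control livers 22 of the 23 fell and none rose, where 36.9% of all genes fell, with a median log2 fold change of -2.09. The largest decreases were of Bcat2 (-5.29, SE 0.21), Klf15, which encodes a transcription factor of amino acid breakdown (-5.25, SE 0.15), Aldh6a1 (-4.35, SE 0.19) and Acat1 (-3.85, SE 0.32), with edgeR adjusted p-values up to 4.86e-05. The overlap of Bcat2 with 0610005C13Rik given above applies here too, and whether counting used the strand is not stated. Bckdk, which encodes the kinase that inhibits the ketoacid dehydrogenase, was the 1 gene that did not pass (-0.16, SE 0.15).

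Downstream of propionyl-CoA carboxylase and in the handling of cobalamin, the cofactor of methylmalonyl-CoA mutase, 12 genes were followed. In hepatocytes 1 of the 12 fell and none rose, where 7.61% of all genes fell and 7.81% rose, so the count is near that of all genes. This was Mmachc, which processes cobalamin on its way to both of its enzymes, at -0.37 on the log2 scale (SE 0.10, edgeR adjusted p = 0.0134, and 0.0705 without siABHD6 3). In livers 0 of the 12 passed, with Mmab, which makes the cobalamin form used by the mutase, at -0.65 (SE 0.30, edgeR unadjusted p = 0.0664, adjusted p = 1) and the epimerase gene Mcee next at 0.14 (SE 0.13, edgeR unadjusted p = 0.286, adjusted p = 1). In control hepatocytes against control livers 7 fell and 1 rose, where 36.9% of all genes fell and 33.3% rose, with a median log2 fold change of -0.89 against -0.03 over all genes. Mtrr, which reactivates methionine synthase, was the gene that rose, by 0.54 (SE 0.13, edgeR adjusted p = 0.00879), and the mutase gene Mmut fell by 2.64 (SE 0.12, edgeR adjusted p = 3.71e-06). Of the others that fell, Mmab was at -2.50 (SE 0.22), Mmaa, which guards loading of the mutase with its cofactor, at -1.81 (SE 0.11) and Mcee at -1.70 (SE 0.15), with edgeR adjusted p-values up to 6.08e-05.

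**Figure D4:**
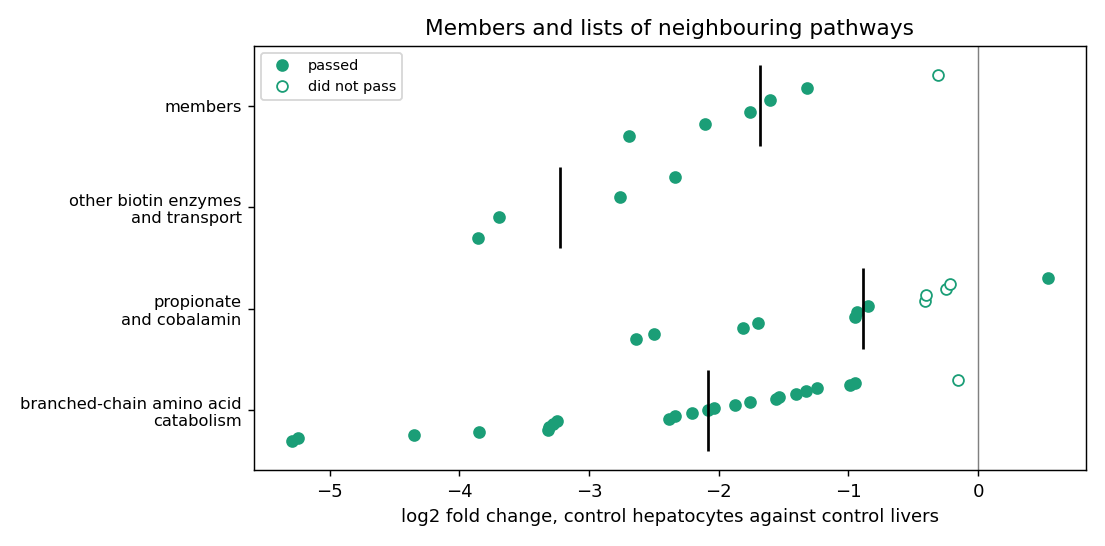
Log2 fold change in control hepatocytes against control livers for each of the 6 members and of the 3 lists of neighbouring genes, with filled points for genes past edgeR's threshold, open points for the others and a line for the median. Hlcs, at -0.31, is the open point of the members, and 22 of the 23 genes of branched-chain amino acid breakdown are filled and lie below 0.

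To describe the Hlcs pattern further, log2 CPM was centred within livers and within hepatocytes and correlated with Hlcs over the 12 libraries for 10043 other protein-coding genes. The most alike were Ctsz (cathepsin Z, Pearson r = 0.931), Hmga1 (a chromatin protein, r = 0.917), Hemk1 (r = 0.894), Mfsd13a (r = 0.893) and the kinase gene Stk38l (r = 0.893). Like Hlcs they had negative log2 fold changes in both systems, from -0.58 to -0.16 with siABHD6 and from -0.61 to -0.26 with overexpression. These signs follow largely from picking genes for their likeness to Hlcs. Among the other 5 genes of the set r with Hlcs ran from -0.633 for Mccc2 to 0.338 for Pccb. For Pccb it was 0.967 within the 6 hepatocyte libraries and -0.306 within the 6 livers. All these values share libraries and group differences, so they describe likeness alone.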

How the data were processed

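Per the labels, poly-A RNA of 12 samples was sequenced, and the authors deposited raw counts per gene, with no normalization, and FPKM values. HISAT2, mm39 and DESeq2 appear in the submitters' processing notes. The counting program, annotation release and strandedness are not given in the sources used. The deposited FPKM scaling was 0.671 to 1.27 times the library total, so FPKM served only as an alternative for the subunit ratios within a library, whose main values use counts per kilobase.

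The members and gene lists were chosen with earlier results of these data known. Each comparison was fitted on its 6 libraries in edgeR 4.0.16 (R 4.3.3, limma 3.58.1): filterByExpr, TMM, quasi-likelihood F test, Benjamini-Hochberg adjustment over all genes tested, calls at an adjusted p under 0.05. The SE is the log2 fold change divided by the root of F. The steps were tested on simulated counts. Levels use TMM over 12 libraries, and log2 CPM a prior count of 2. The lists hold 4, 23 and 12 genes. Of each of the latter 2 lists, up to 4 called genes with the largest change in each direction are named or, with none called, the 2 with the smallest p; others were named after their values were seen. Genes alike to Hlcs needed a mean log2 CPM of at least 1 in each system. Sequences came from GENCODE M21 (GRCm38), the longest coding transcript of each gene, and were not mixed with mm39 coordinates. Alternatives were DESeq2 1.42.0, limma-voom, RLE or upper-quartile scaling, no filter or at least 1 CPM throughout, 1 fit over 12 libraries, a replicate block and leaving out each library. Leaving out GFP liver 3 and overexpressing liver 1 together was chosen after seeing the data.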

Additional observations from a re-analysis of the deposited data

How the results depend on the processing

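No fold change of the 6 genes between the control groups changed direction. Neither did that of Hlcs in either treatment comparison or that of Pccb in hepatocytes. Values near 0 did, without single livers (Pcca from -0.12 to 0.23) or single cultures (Pcca from -0.07 to 0.03). Pccb in livers also crossed 0 with all libraries kept, from -0.0175 to 0.000927 over the settings. Over the settings other than leaving out libraries Hlcs ranged from -0.51 to -0.50 in hepatocytes and from -0.72 to -0.70 in livers, and without single libraries from -0.53 to -0.48 and from -0.83 to -0.56. Without GFP liver 3 and overexpressing liver 1 together it was -0.48 in livers, where 1 gene was then called. Between control groups Hlcs ranged from -0.42 to -0.15 without single libraries. The other 5 genes passed under every setting tried there. For livers edgeR called 0 genes (301 at an unadjusted p under 0.05), limma-voom 0, DESeq2 8, edgeR without a filter 2 and with 1 fit over 12 libraries 4. That last fit, with a spread estimated from livers and cultures together, gave 41 calls for hepatocytes, each among the 2075 of the 6-library fit, and 0 of the other biotin genes, 0 of the propionate and cobalamin list and 0 of the branched-chain list in either direction. In hepatocytes the branched-chain genes that rose numbered 2 in DESeq2 and 2 to 3 without single libraries, and those that fell 1 and 1 to 2. DESeq2 did not call Bcat2 (adjusted p = 0.0869) or Dbt (adjusted p = 0.0929). Those of the propionate and cobalamin list that fell numbered 0 to 1 without single libraries. With 3 libraries a group and 238 to 556 counts of Hlcs per library, small differences could be missed. Large ones could be missed too in livers, where the 6-library edgeR fit did not call Abhd6 at a log2 fold change of 2.04. The biological coefficient of variation was 28.1% there, against 4.93% in hepatocytes, where a log2 fold change of 0.23 (Acat1) was called.

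Samples with the same replicate number did not deviate together (r of -0.0107 to -0.00354 in hepatocytes and -0.416, 0.436 and -0.132 in livers), so no pairing was assumed. With the replicate block 2124 genes were called in hepatocytes and 0 in livers, Hlcs was at -0.70 in livers, and Bcat2 lost its call (adjusted p = 0.0563).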

Other observations

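The word TGTTTAC, which FoxO factors are known to bind, was searched on both strands of RefSeq promoter windows (build GRCm38.p6, 250 bases before to 50 after a gene's start). It was in 0 of the 9 windows of the 6 genes, some of which overlap, and in 3.65% of all 32851 windows.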
